A study of Mus musculus with 6 samples.

Results

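Cultured Ezh2-deficient mouse chondrocytes are compared here between day 14 and day 7 of micromass culture, across every gene of the deposited count table. The members were all 23358 entries of the table (23315 distinct symbols), read in 2 of the series' 6 libraries. The cells were immature chondrocytes taken at postnatal day 5 from the tibial plateau, the condyles of the femur and the femoral head of mice whose strain the labels give as "C57BL/6 - mix". Both compared libraries came from the genotype that the labels call Ezh2-deficient and the titles Ezh2_cKO. The Cre driver, the deleted part of Ezh2, the number of animals behind a culture and any pooling are unknown here, since the sources used here do not give them. A micromass is a dense drop of cells that lays down its own matrix, and all cultures shared the same medium supplements, β-glycerol phosphate, ascorbic acid and an insulin-transferrin-selenium mix. Wildtype cultures at the same days are the comparison series, and day 3 levels are given as context only. Each genotype and day had 1 library, so there was no replicate check, no test was made, and every range below covers counting error only. In bulk RNA, fewer cells of a type and less RNA per cell cannot be told apart.

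Cartilage cells of the growth plate first secrete type II collagen and aggrecan. They then enlarge into hypertrophic chondrocytes, which make type X collagen, and the tissue is finally mineralised and replaced by bone, whose matrix is mostly type I collagen with acidic phosphoproteins. Ezh2 is the methyltransferase of Polycomb repressive complex 2, which marks silenced developmental genes by methylating histone H3 at lysine 27. β-Glycerol phosphate is the phosphate source commonly given to mineralising cultures, and ascorbic acid is a cofactor of collagen hydroxylation.

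Levels are counts per 1000000 counts of the library (CPM), scaled by TMM factors over the 6 libraries. A gene is said to have risen or fallen where it had at least 1 CPM in the higher library, differed by at least 2-fold with a prior of 2 counts, and had a ratio whose exact 95% counting interval did not include 1. Folds are day 14 over day 7 for genes that rose and day 7 over day 14 for genes that fell, with that interval in parentheses. Names follow a rule set out with the processing, and list members named beyond it (such as Col4a1, Hmgcs1 and Cdc20) were chosen after their values were seen. Of 13550 genes with at least 1 CPM in either library, 719 rose (5.31%) and 790 fell (5.83%). Counts of list members below are to be read against these shares. In wildtype, by the same rule, 497 of 13517 genes rose (3.68%) and 430 fell (3.18%). The median log2 change over the 13550 genes was -0.01, and 77.3% of them lay within 1.5-fold. The rises were larger than the falls: 105 genes rose and 29 fell by at least 8-fold, and 19 rose and 2 fell by at least 32-fold. When libraries were scaled by total counts alone, the median of all genes shifted by -0.19 on the log2 scale, and 531 genes were higher and 1146 lower, so that 31.7% of the called genes were higher in place of 47.6%.

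**Figure D1:**
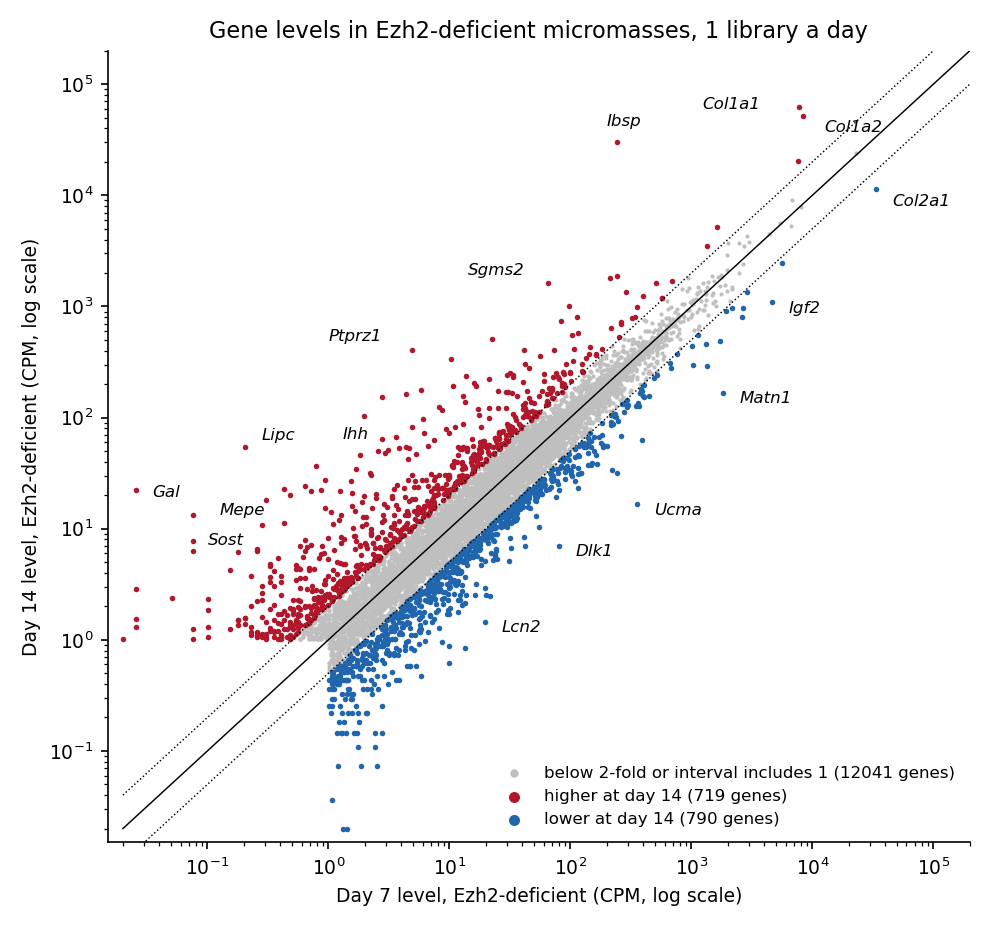
Each point is a gene with at least 1 CPM in either Ezh2-deficient library, with its level at day 7 on the x axis and at day 14 on the y axis (CPM, both axes logarithmic, values below 0.02 CPM drawn at 0.02). The 719 genes that rose are red, the 790 that fell are blue, the other 12041 are grey, and labels name some genes of the text.

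The library had 71953802 counts at day 7 and 57319966 at day 14, with 18139 and 17609 genes detected, and 3 fragments corresponded to 0.0763 and 0.109 CPM. A few transcripts took a much larger share of the day 14 library. Col1a1, Col1a2, Ibsp and Sparc together held 2.623% of counts at day 7 and 15.83% at day 14, against 2.254% and 8.31% in wildtype. Rn45s, the ribosomal RNA precursor, held 2.506% and 2.282%. The labelled cell type was checked against cartilage genes: Col2a1, Acan and Sox9 stood at 33586, 2881 and 208 CPM at day 7.

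**Figure D2:**
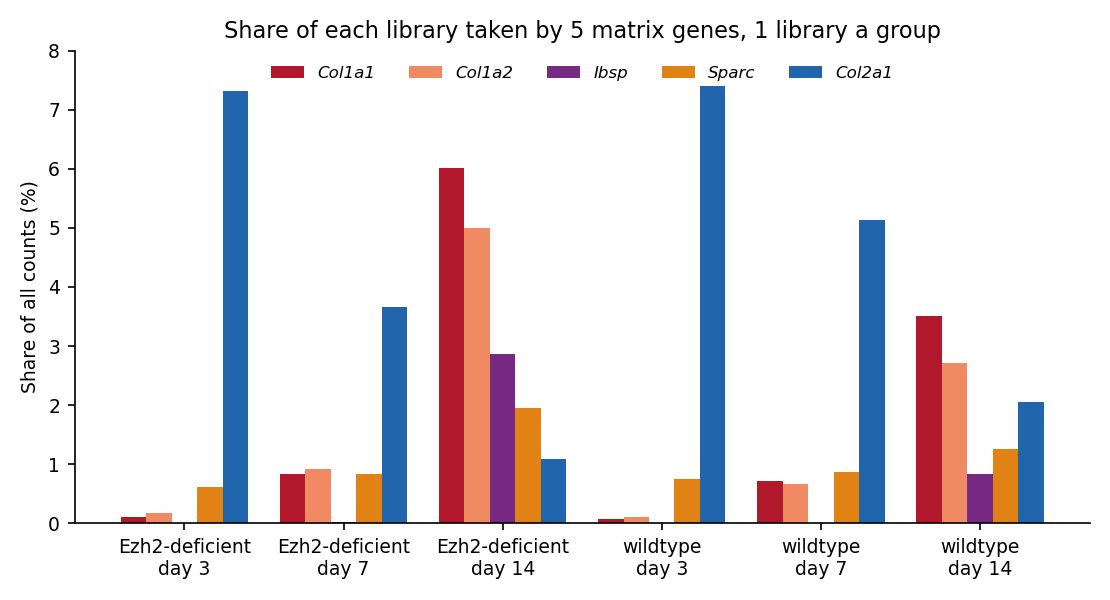
The y axis is the percent of a library's counts held by Col1a1, Col1a2, Ibsp, Sparc and Col2a1 in each of the 6 libraries. In the Ezh2-deficient libraries Col1a1 went from 0.839% at day 7 to 6.021% at day 14, Ibsp from 0.026% to 2.863%, and Col2a1 from 3.669% to 1.095%.

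Ezh2 itself (chromosome 6, 47530274 to 47595030, mm10) was read at 14.7 CPM at day 3, 23 at day 7 and 17.6 at day 14 in the Ezh2-deficient libraries. Wildtype libraries held 24.6 CPM at day 3 and 40.3 and 27.9 CPM at days 7 and 14. The Ezh2-deficient library was the lower of the pair at each of the 3 days, and reads outside the deleted part, which is not known here, would still be counted. From day 7 to day 14 its log2 change was -0.39 in Ezh2-deficient and -0.53 in wildtype cultures, neither past the 2-fold rule.

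Of the 19 SIBLING and other bone matrix genes with at least 1 CPM, 14 rose and 1 fell, and their median log2 change was 2.54 against -0.01 for all genes. Wildtype was alike: 13 of the same genes rose and none fell, with a median of 2.2. SIBLINGs are acidic, integrin-binding phosphoproteins of bone and dentin encoded side by side on chromosome 5. Ibsp, bone sialoprotein (chromosome 5, 104299287 to 104311472), rose from 243 to 29884 CPM, 123-fold (121 to 126). At day 3 it had been 56.2 CPM, so nearly all of its gain fell in the second week. On the authors' RPKM scale, which divides by coding length, Ibsp stood at 109 at day 7 and 11748 at day 14, and Col1a1 at 1436 and 10282. Per length, Ibsp was thus below Col1a1 at day 7 and above it at day 14.

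Within the cluster the neighbours of Ibsp did not move alike. Dmp1, a matrix protein of osteocytes (chromosome 5, 104202617 to 104214102), rose from 16 to 205 CPM, 12.8-fold (11.8 to 13.9). Mepe, another osteocyte phosphoprotein (chromosome 5, 104325329 to 104338611), rose from 0.28 to 10.8 CPM, 38.5-fold (21.2 to 78), from 11 fragments at day 7. Spp1, osteopontin (chromosome 5, 104435111 to 104441053), had 2004 and 3747 CPM and stayed under the 2-fold rule, while in wildtype it rose from 1738 to 5699 CPM. Dspp, the dentin member, was at 0 in both libraries. Ifitm5, a membrane protein of osteoblasts, rose from 1.98 to 103 CPM, 51.7-fold (41.3 to 65.6). Sgms2, a sphingomyelin synthase, rose from 64.7 to 1619 CPM, 25-fold (24 to 26).

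Osteocalcin, the late calcium-binding protein of osteoblasts, is encoded by neighbouring copies on chromosome 3. Bglap (chromosome 3, 88383495 to 88384464) rose from 13 to 157 CPM, 12-fold (11 to 13.2) and Bglap2 rose from 4.58 to 42.4 CPM, 9.26-fold (7.9 to 10.9). The copies are near-identical, so reads could have been split between them. At day 3 Bglap had 13.3 CPM, so its level changed little before day 7.

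The start regions of Ibsp and Bglap are shown because Ibsp rose most among the bone matrix genes and Bglap is a late osteoblast product. Each sequence runs from 250 bases before to 50 after the RefSeq start (GRCm38.p6), 5′ to 3′ on the gene's strand. Capitals mark the TATA box, spelled TATAAA, the CCAAT box, named for its letters, and the Runx motif, spelled TGTGGT. Each was searched on both strands, and reverse matches are in capitals too. Ibsp lies at chr5:104299037-104299336, plus strand and Bglap at chr3:88384417-88384716, minus strand.
Ibsp: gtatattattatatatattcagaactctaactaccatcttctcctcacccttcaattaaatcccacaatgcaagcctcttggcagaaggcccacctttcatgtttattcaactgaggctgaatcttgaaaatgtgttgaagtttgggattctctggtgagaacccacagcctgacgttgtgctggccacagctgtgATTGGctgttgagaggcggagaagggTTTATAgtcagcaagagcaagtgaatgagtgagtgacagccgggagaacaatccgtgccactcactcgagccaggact
Bglap: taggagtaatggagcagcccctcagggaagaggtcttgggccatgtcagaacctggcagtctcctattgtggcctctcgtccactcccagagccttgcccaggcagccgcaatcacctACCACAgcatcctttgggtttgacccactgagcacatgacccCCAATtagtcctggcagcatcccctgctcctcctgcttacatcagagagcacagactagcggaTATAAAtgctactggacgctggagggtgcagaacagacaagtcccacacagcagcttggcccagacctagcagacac
Ibsp held a reverse CCAAT box beginning 54 bases before the start and a reverse TATA box 28 bases before it. Bglap held a reverse Runx motif 132 bases before the start, a CCAAT box 90 bases before and a TATA box 27 bases before. Of all 27025 genes with such a region, 18.9% held the Runx motif, 41.1% the CCAAT box and 15.7% the TATA box. RefSeq start regions were found for 78.9% of the bone matrix list, under the 80% set for a count over a list, so none is given.

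Genes of phosphate supply and mineral formation rose in part. Of 16 members, 5 rose and none fell, with a median log2 change of 0.10 (-0.09 under scaling by total counts). The same members had a median of 0.52 in wildtype, where 5 also rose and none fell. Alpl, the tissue-nonspecific phosphatase that frees phosphate and degrades pyrophosphate, rose from 243 to 1888 CPM, 7.78-fold (7.61 to 7.95). Phospho1, which releases phosphate inside matrix vesicles, rose from 8.22 to 125 CPM, 15.2-fold (13.6 to 17.1). Phex, the endopeptidase mutated in X-linked hypophosphataemia, rose from 16.5 to 194 CPM, 11.7-fold (10.8 to 12.8). Slc20a2, a phosphate transporter, had 34.3 and 18.4 CPM.

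Several transcription factors of the osteoblast lineage rose beside the matrix genes. Among 19 bone transcription factors, 6 rose and 1 fell, with a median log2 change of 0.43 (0.53 in wildtype, where 7 rose and 1 fell). Sp7 (osterix), required for osteoblast formation, rose from 42.1 to 306 CPM, 7.27-fold (6.89 to 7.66), and Runx2, the factor upstream of it, rose from 98.5 to 258 CPM, 2.62-fold (2.52 to 2.72). Dlx3, a homeobox factor, rose from 2.57 to 49.6 CPM, 19.3-fold (15.7 to 23.8), and Dlx5 rose 2.04-fold (1.86 to 2.24), under 2-fold when scaled by total counts. Vdr, the vitamin D receptor, rose from 13.6 to 53.7 CPM, 3.94-fold (3.57 to 4.36). Twist2, known as a brake on Runx2, fell from 6.82 to 2.33 CPM, 2.93-fold (2.22 to 3.91).

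Of 27 osteoblast surface and secreted genes, 19 rose and none fell. Their median log2 change was 1.45, and 13 of the same genes rose in wildtype. Col13a1, a transmembrane collagen, rose from 2.77 to 153 CPM, 55-fold (45.5 to 67.1). Col22a1, a collagen of tissue junctions, rose from 10.4 to 335 CPM, 32.3-fold (29.2 to 35.7), and Col24a1, a fibrillar collagen of bone, rose 10.2-fold (9.34 to 11.2). Bmp8a, a bone morphogenetic protein, rose from 0.789 to 36.8 CPM, 46.6-fold (32.6 to 69). Tmem119, an osteoblast membrane protein, rose from 83.3 to 733 CPM, 8.8-fold (8.48 to 9.13), and Pth1r, the receptor of parathyroid hormone and PTHrP, rose from 112 to 809.7 CPM, 7.21-fold (6.98 to 7.45). Cadm1, an adhesion molecule, rose from 21.1 to 221 CPM, 10.5-fold (9.77 to 11.3), whereas in wildtype it rose 2.5-fold.

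Osteocyte genes, those of bone cells buried in matrix, rose in part, some of them from close to the counting floor. Of 15, 7 rose and none fell, with a median log2 change of 0.65 (0.91 in wildtype, where 7 also rose). Dmp1, Mepe and Phex, among those that rose, are also in the lists described above. Sost, the Wnt inhibitor sclerostin, had 3 fragments at day 7 and 6.26 CPM at day 14, a ratio of 82.1-fold (27.6 to 402). Dkk1, another secreted Wnt inhibitor, rose from 0.305 to 18.3 CPM, 59.9-fold (34 to 117). Slc13a5, a citrate transporter, rose from 22.3 to 506 CPM, 22.6-fold (21.1 to 24.3). Irx5, a homeobox factor, rose from 4.66 to 53.5 CPM, 11.5-fold (9.85 to 13.5).

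**Figure D3:**
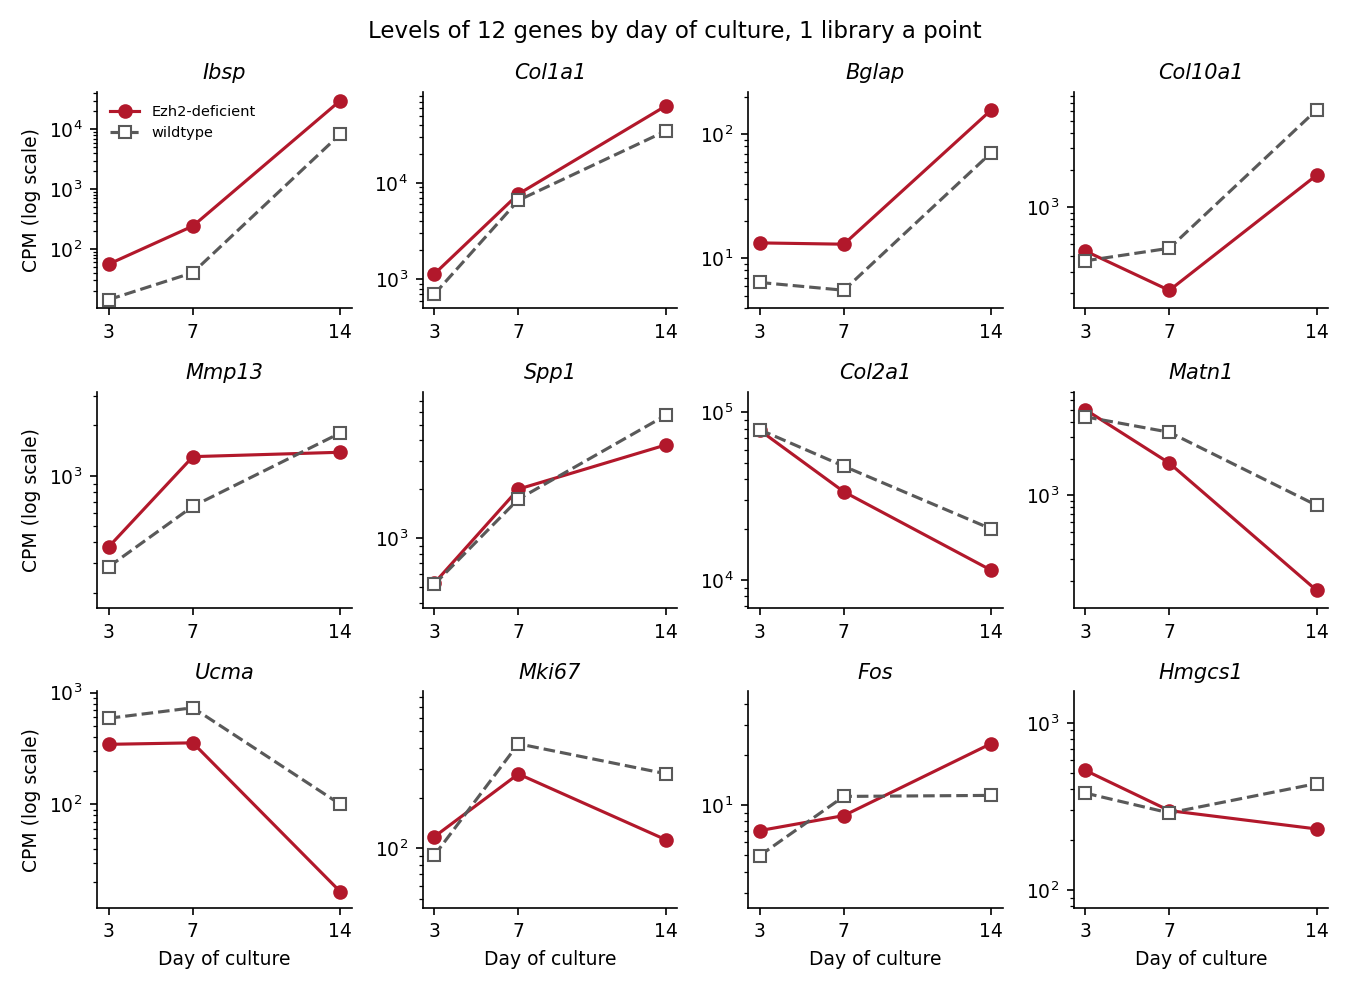
Levels (CPM, logarithmic y axis) of 12 genes at days 3, 7 and 14 in Ezh2-deficient and wildtype libraries, 1 library a point. Ibsp rose between day 7 and day 14 in both genotypes, Col2a1, Matn1 and Ucma fell in both, and Fos went from 8.65 to 23.3 CPM in Ezh2-deficient libraries.

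Most hypertrophic cartilage genes rose. Among 19, 11 rose and 1 fell, with a median log2 change of 1.27 against 1.41 for the same genes in wildtype. Of those that rose, Ibsp, Alpl, Sp7, Runx2 and Pth1r are also in the lists described above. Col10a1, the collagen made by hypertrophic chondrocytes, had 441 CPM at day 3 and rose from 211 to 1812 CPM, 8.59-fold (8.39 to 8.79). In wildtype it rose from 463 to 6127 CPM, so its level at day 14 was the lower in the Ezh2-deficient library. Ihh, the hedgehog ligand of prehypertrophic cells, rose from 3.1 to 51.2 CPM, 16.5-fold (13.7 to 20.03). Panx3, a channel protein of hypertrophic cells and osteoblasts, rose from 96.8 to 1006 CPM, 10.4-fold (10.05 to 10.8). Mef2c, a factor that drives hypertrophy, rose from 115 to 578 CPM, 5.02-fold (4.86 to 5.19). Vegfa, the angiogenic factor of hypertrophic cartilage, rose from 125 to 301 CPM, 2.41-fold (2.33 to 2.5).

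Mmp13, the collagenase of the terminal hypertrophic zone, did not follow them. It had 377 CPM at day 3 and 1302 and 1383 CPM at days 7 and 14, a log2 change of 0.09. In wildtype it rose from 658 to 1800.3 CPM. The Ezh2-deficient library was thus the higher at day 7 and the lower at day 14. Among hedgehog and PTHrP genes, 2 of 13 rose (Ihh and Pth1r) and 1 fell. Ptch1 and Hhip, hedgehog targets, had 229 and 395 CPM and 324 and 502 CPM, and Gas1, a co-receptor, fell from 187 to 54.6 CPM, 3.42-fold (3.23 to 3.61).

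Many cartilage matrix genes fell. Of 30, 14 fell and 1 rose, with a median log2 change of -0.92 against -0.84 in wildtype. Their summed level was 154664 CPM at day 3, 63699 at day 7 and 29016 at day 14. Col2a1, type II collagen (chromosome 15, 97975602 to 98004724), fell from 33586 to 11426 CPM, 2.94-fold (2.93 to 2.95). Acan, aggrecan, fell from 2881 to 1347 CPM, 2.14-fold (2.11 to 2.16). The chains of type IX collagen fell as a set, Col9a1 3.23-fold, Col9a2 2.89-fold and Col9a3 3.48-fold, while Col11a1 had 6704 and 5246 CPM.

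Within the list the steepest falls were among smaller matrix proteins. Ucma, a vitamin K-dependent protein of cartilage (chromosome 2, 4976122 to 4985748), fell from 356 to 16.6 CPM, 21.4-fold (19.5 to 23.6), the largest fall among named genes with at least 5 CPM. Matn1, a filament-forming matrilin (chromosome 4, 130944385 to 130955476), fell from 1836 to 166 CPM, 11-fold (10.7 to 11.4). Epyc, a small proteoglycan, fell from 221 to 33.9 CPM, 6.53-fold (6.1 to 6.99), and Lect1, chondromodulin, an inhibitor of vessel growth, fell from 1342 to 288 CPM, 4.66-fold (4.55 to 4.77). In wildtype the same genes fell less far by size, by 7.29-fold for Ucma, 3.97-fold for Matn1, 3.32-fold for Epyc and 2.67-fold for Lect1. Chad, chondroadherin, was the member that rose, from 68.5 to 175 CPM, 2.55-fold (2.43 to 2.68).

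Among 11 transcription factors of cartilage, 2 fell and none rose. Sox9, the master factor of cartilage, had 208 and 139.7 CPM. Its partner Sox5 fell from 51.3 to 18.1 CPM, 2.83-fold (2.56 to 3.13), and Sox6 had 98.8 and 75.5 CPM. Nkx3-2, which holds back hypertrophy, fell from 8.73 to 2.33 CPM, 3.74-fold (2.86 to 4.97). Genes of the joint surface did not share a direction: Prg4, lubricin, had 16 and 18.1 CPM, Sfrp5 fell from 23.7 to 5.65 CPM, 4.2-fold (3.54 to 5.01), and Thbs4 rose from 64.6 to 139 CPM, 2.16-fold (2.05 to 2.27), less than 2-fold when scaled by total counts.

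Collagens of fibrous tissue and basement membrane moved in both directions. Of 18, 5 rose and 4 fell, with a median log2 change of -0.23 (0.19 in wildtype). Col1a1 (chromosome 11, 94936270 to 94951856) rose from 7685 to 62848 CPM, 8.18-fold (8.15 to 8.21), and its partner chain Col1a2 rose from 8419.9 to 52214 CPM, 6.2-fold (6.18 to 6.22). Col5a1 and Col5a2, which nucleate type I fibrils, rose 2.61-fold (2.59 to 2.64) and 3.22-fold (3.19 to 3.25). Col3a1, the collagen of soft connective tissue, had 5395 and 5617 CPM. Col14a1, a fibril-associated collagen, fell from 173 to 66.2 CPM, 2.61-fold (2.48 to 2.75), Col5a3, another type V chain, fell 2.57-fold (2.41 to 2.73), and Col18a1, the source of endostatin, fell 2.33-fold (2.21 to 2.45). Col4a1, a basement membrane chain, fell from 666 to 308 CPM, 2.16-fold (2.11 to 2.22), and Col4a2, its partner gene on the opposite strand, had 519 and 261 CPM, just short of the rule. In wildtype Col4a1 had 511 and 502 CPM and Col4a2 384 and 396 CPM.

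Enzymes that process type I collagen rose in part, 4 of 25 with none that fell. Lox, which cross-links collagen, rose from 690.2 to 1696 CPM, 2.46-fold (2.42 to 2.49). Bmp1 and Adamts2, which cut the propeptides, rose 2.62-fold (2.53 to 2.7) and 3.19-fold (3.01 to 3.38). P4ha1, a prolyl hydroxylase subunit, rose 2.07-fold (2.03 to 2.1) and was under 2-fold when scaled by total counts. Of 18 metalloproteinases and inhibitors, 4 fell and 1 rose. Mmp9, the gelatinase of osteoclasts, fell from 20.1 to 2.55 CPM, 7.88-fold (6.16 to 10.2), and Mmp3, stromelysin, fell from 20.6 to 8.12 CPM, 2.53-fold (2.18 to 2.95) while it had 26.9 and 45.4 CPM in wildtype. Of 16 small leucine-rich proteoglycans, which coat collagen fibrils, 4 fell and 2 rose, with a median log2 change of -0.47. Chadl fell 2.9-fold (2.7 to 3.12) and Ogn fell 2.03-fold (1.99 to 2.08).

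**Figure D4:**
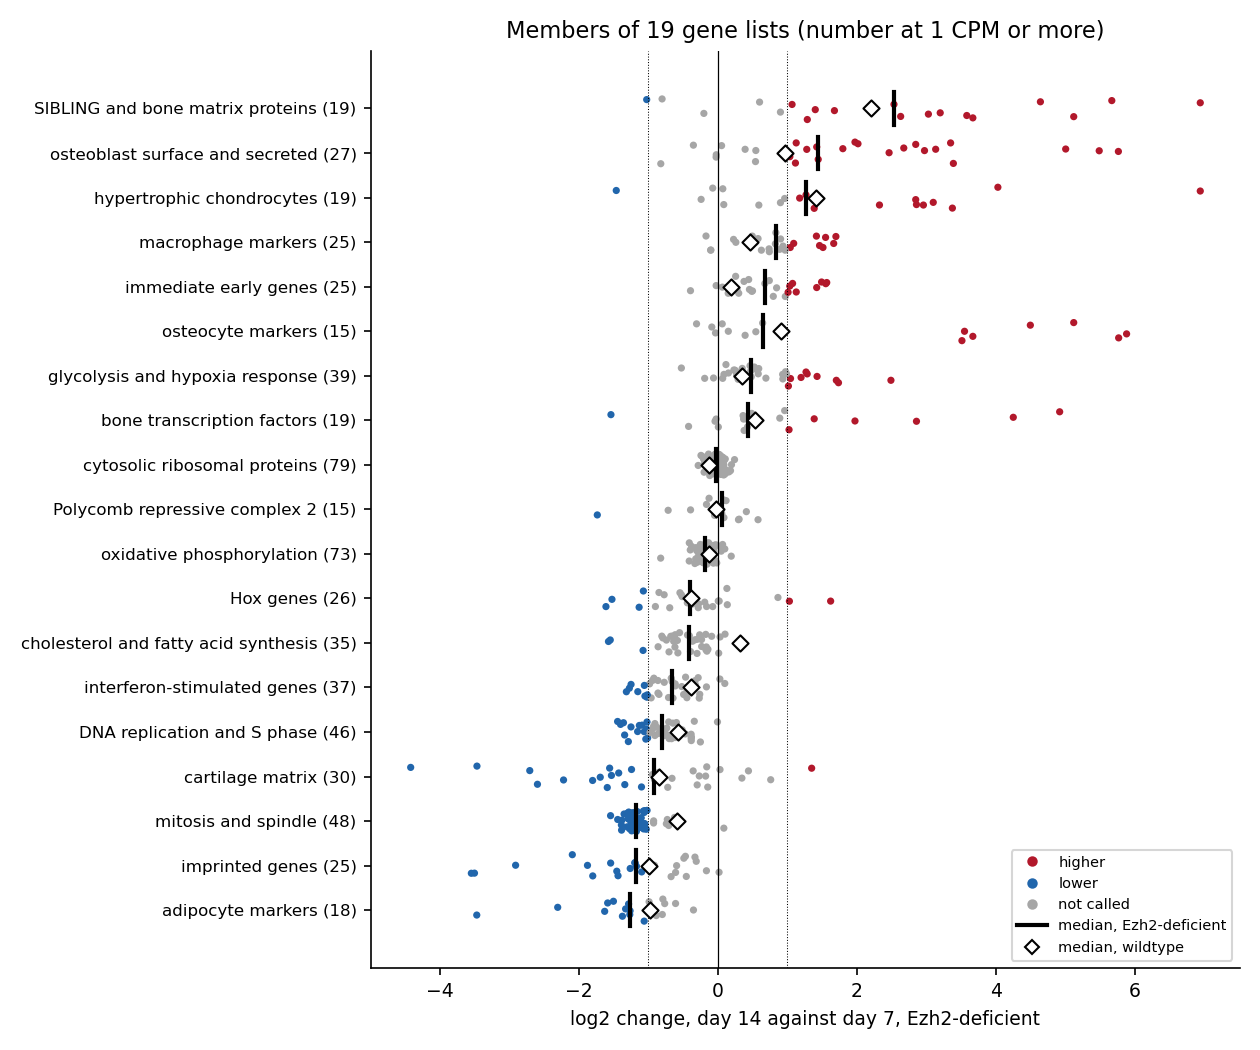
Members of 19 gene lists (points, genes with at least 1 CPM) by their log2 change from day 7 to day 14 in the Ezh2-deficient libraries, with the list's median as a bar and the wildtype median of the same members as a diamond. Bone matrix genes had a median of 2.54, cartilage matrix genes -0.92 and mitosis genes -1.17.

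Cell division genes fell almost as a block in the Ezh2-deficient cultures. Of 48 genes of mitosis and the spindle, 41 fell and none rose, with a median log2 change of -1.17. Their levels summed to 1214, 2300.2 and 1026 CPM at days 3, 7 and 14. In wildtype the sums were 975, 3800.5 and 2523 CPM, the median log2 change of the same genes was -0.59, and none passed the 2-fold rule. The change was lower in Ezh2-deficient than in wildtype cultures for 47 of the 48 genes, a difference that was not tested.

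Mki67, the proliferation antigen Ki-67, fell from 278 to 113 CPM, 2.47-fold (2.37 to 2.57). Ccnb1, cyclin B1, the partner of Cdk1 at mitotic entry, fell from 51.6 to 17.7 CPM, 2.92-fold (2.64 to 3.23), and Ccna2, cyclin A2, fell from 69.98 to 26.9 CPM, 2.6-fold (2.4 to 2.83). Bub1, a spindle checkpoint kinase, fell 2.62-fold (2.29 to 2.997), and Nuf2, a kinetochore protein, fell 2.72-fold (2.4 to 3.09). Pttg1, securin, had 14.9 and 15.9 CPM and was the only one of the 48 with a change above 0.

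Among 46 genes of DNA replication and S phase, 14 fell and none rose, with a median of -0.80 (-0.57 in wildtype, where none fell). Uhrf1, which guides maintenance DNA methylation, fell from 55.5 to 20.4 CPM, 2.72-fold (2.48 to 2.99). Mcm5, a subunit of the replicative helicase, fell from 53.5 to 22.5 CPM, 2.38-fold (2.17 to 2.6), and Pole, the leading-strand polymerase, fell from 26.9 to 11 CPM, 2.44-fold (2.15 to 2.79). Under scaling by total counts 23 of the 46 were lower in Ezh2-deficient cultures.

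Start regions of 3 mitotic genes are shown as examples of members that fell together. They begin 250 bases before and end 50 after the RefSeq start (GRCm38.p6). Capitals mark the cell cycle homology region (TTTGAA or TTCGAA, either strand) and the CCAAT box (CCAAT, either strand). The regions are chr4:118437294-118437593, minus strand for Cdc20, the activator of the anaphase-promoting complex, chr7:122159185-122159484, plus strand for Plk1, a mitotic kinase, and chr13:100786437-100786736, minus strand for Ccnb1.
Cdc20: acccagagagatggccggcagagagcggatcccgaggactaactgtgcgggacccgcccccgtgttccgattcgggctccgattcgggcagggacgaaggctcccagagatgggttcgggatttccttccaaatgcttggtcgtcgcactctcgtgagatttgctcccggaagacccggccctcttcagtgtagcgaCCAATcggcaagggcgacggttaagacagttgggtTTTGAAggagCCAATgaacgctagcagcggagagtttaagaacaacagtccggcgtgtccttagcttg
Plk1: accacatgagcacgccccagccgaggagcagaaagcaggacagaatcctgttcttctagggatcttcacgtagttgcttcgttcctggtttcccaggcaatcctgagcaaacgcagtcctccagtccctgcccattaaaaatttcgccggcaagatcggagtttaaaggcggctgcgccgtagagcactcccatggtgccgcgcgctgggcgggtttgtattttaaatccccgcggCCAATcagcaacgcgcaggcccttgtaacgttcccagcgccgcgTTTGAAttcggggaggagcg
Ccnb1: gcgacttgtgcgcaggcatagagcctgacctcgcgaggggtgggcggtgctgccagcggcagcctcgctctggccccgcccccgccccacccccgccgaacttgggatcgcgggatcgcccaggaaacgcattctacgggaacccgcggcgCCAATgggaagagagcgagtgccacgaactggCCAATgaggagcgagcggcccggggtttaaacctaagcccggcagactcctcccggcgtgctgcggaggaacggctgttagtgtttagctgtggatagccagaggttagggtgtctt
Cdc20 held both motifs, Plk1 held both, and Ccnb1 held the CCAAT box alone, at 99 and 67 bases before its start. Cdc20 fell 2.35-fold (2.12 to 2.61), Plk1 2.45-fold (2.18 to 2.74) and Ccnb1 2.92-fold (2.64 to 3.23). Of all 27025 genes with a start region, 21.7% held the cell cycle homology region. For replication genes a start region was found for 37 of 46, and 14 of these (37.8%) held an E2F motif (TTTCCCGC or TTTGGCGC, either strand) against 1.8% of all 27025 promoters, 22 (59.5%) held a CCAAT box against 41.1%, and 9 (24.3%) held the cell cycle homology region against 21.7%. Coverage of the mitosis list was 79.2%, under the 80% set for such a count. These matches are letters in a window, not binding sites, and the 27025 promoters include those of genes not read here. Their part in the falls was not tested.

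Inhibitors of the cycle did not move as 1 group. Of 23 CDK inhibitors and p53 targets, 2 rose and 1 fell. Cdkn1a (p21) rose from 216 to 636 CPM, 2.94-fold (2.87 to 3.02), and Cdkn1c (p57), which is imprinted and marks cells leaving the cycle in cartilage, fell from 348 to 127 CPM, 2.74-fold (2.64 to 2.84). Cdkn2a, a well-known Polycomb target, had 1.05 CPM at day 3 and 13 and 25.4 CPM at days 7 and 14, just under the rule with a log2 change of 0.96. In wildtype it rose from 7.37 to 21.7 CPM.

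Most Polycomb genes, like most genes, did not pass the rule. Of 15 genes of repressive complex 2 and its antagonists, 1 fell, and of 20 genes of repressive complex 1 none passed the rule. The shares over all genes were 5.31% that rose and 5.83% that fell. Ezh1, the second methyltransferase, had 24.5 and 30.1 CPM, Eed 30.6 and 31.9 CPM and Suz12 70.5 and 68.8 CPM. Phf19, an accessory subunit, fell from 11 to 3.28 CPM, 3.35-fold (2.66 to 4.25), and Kdm6b, a demethylase of the same histone residue, had 51.8 and 77.5 CPM.

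Developmental regulators that Polycomb commonly silences remained mostly low. Of 104 in the list, 35 had at least 1 CPM and 25 were at 0 in both libraries, and of the 35, 3 rose and 6 fell. Besides Irx5, Tbx2, a T-box factor, rose from 6.36 to 27.6 CPM, 4.35-fold (3.76 to 5.03). Pitx1, the hindlimb factor, fell from 56 to 21.2 CPM, 2.65-fold (2.42 to 2.91), and Lhx9, a limb LIM factor, fell from 6.77 to 2.4 CPM, 2.82-fold (2.14 to 3.75). Of 26 Hox genes, 2 rose and 4 fell, with a median log2 change of -0.40 (-0.38 in wildtype). The 2 that rose, Hoxb2 (0.865 to 2.73 CPM) and Hoxb3 (0.662 to 1.38 CPM), were low in both libraries, while Hoxa11, a Hox gene of the middle limb segment, fell from 23.4 to 11.1 CPM, 2.1-fold (1.85 to 2.4). Over all genes 5.31% rose and 5.83% fell.

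Imprinted genes, expressed from a single parental copy and high in growing tissues, fell in part. Of 25, 14 fell and none rose, with a median log2 change of -1.17 and of -0.99 in wildtype, where 12 fell. Igf2, the fetal growth factor (chromosome 7, 142650768 to 142661035), fell from 4667 to 1094 CPM, 4.27-fold (4.21 to 4.32), and H19, its neighbouring noncoding RNA (chromosome 7, 142575532 to 142578146), fell from 5612 to 2456 CPM, 2.29-fold (2.27 to 2.3). Dlk1 (chromosome 12, 109452823 to 109463336), a membrane protein of progenitors, fell from 79.9 to 7.03 CPM, 11.4-fold (9.82 to 13.2). The other genes of its cluster that were looked up also fell: Meg3 (489 to 229 CPM), Rtl1 (3.79 to 1.57 CPM), Rian (367 to 126 CPM) and Mirg (13.6 to 5.03 CPM). Rtl1 did not pass with the authors' RPKM, where it missed the minimum of 1 RPKM. Peg10, a gene derived from a retrotransposon (chromosome 6, 4747306 to 4760516), fell from 241 to 32 CPM, 7.52-fold (7.01 to 8.06), while its neighbour Sgce had 53.9 and 39.4 CPM. Magel2, a gene of the Prader-Willi region, fell from 5.85 to 0.473 CPM, 12.4-fold (7.09 to 23.6). Igf2as, which overlaps Igf2, also fell, but without known strandedness its reads cannot be told apart from those of Igf2.

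Some Wnt genes rose, among activators and antagonists alike. Of 24 ligands, receptors and targets, 8 rose and 1 fell, with a median log2 change of 0.75, and of 14 antagonists 5 rose and 1 fell. Sost and Dkk1, among the antagonists that rose, are also on the osteocyte list above, and Notum is on both Wnt lists. Among ligands, Wnt10b rose from 7.2 to 18.3 CPM, 2.54-fold (2.19 to 2.95) and Wnt5b rose from 11.3 to 25.8 CPM, 2.29-fold (2.03 to 2.59). Lgr6, a receptor of R-spondins, rose from 0.636 to 7.94 CPM, 12.5-fold (8.23 to 19.7). The transcription factor Tcf7 rose from 5.29 to 46.7 CPM, 8.81-fold (7.61 to 10.3). Sfrp1, a decoy of Wnt ligands, rose from 12.7 to 30.2 CPM, 2.38-fold (2.13 to 2.66), whereas in wildtype it had 8.59 and 9.15 CPM.

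The BMP family moved in both directions. Of 30 ligands and antagonists, 8 rose and 5 fell. Bmp2 rose from 7.46 to 20.1 CPM, 2.69-fold (2.33 to 3.11) and Bmp4 rose from 17.9 to 43.5 CPM, 2.43-fold (2.21 to 2.67), and Nog (noggin), their antagonist, rose from 20.9 to 48.6 CPM, 2.32-fold (2.13 to 2.54). Gdf5, the joint-forming ligand, fell from 9.42 to 4.44 CPM, 2.12-fold (1.72 to 2.62), Bmp5 fell 2.5-fold (2.2 to 2.83) and Chrdl1, another antagonist, fell from 233 to 107 CPM, 2.19-fold (2.1 to 2.28). In wildtype Chrdl1 had 196 and 237 CPM.

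Among 17 TGF-beta genes, 2 rose and 4 fell, and none of the same genes fell in wildtype. Ctgf, a matricellular target, fell from 521 to 242 CPM, 2.16-fold (2.1 to 2.22), Tgfbi, another secreted target, fell from 130.1 to 59.3 CPM, 2.2-fold (2.08 to 2.32), and Lrrc32, which docks latent TGF-beta, fell from 47.7 to 21.2 CPM, 2.25-fold (2.05 to 2.48). Tgfbr3, a co-receptor, fell 2.35-fold (2.22 to 2.49). In the IGF axis 2 of 18 rose and 1 fell (Igf2), with a median log2 change of -0.19, and the summed level went from 9276 to 5419 CPM. Igf1 rose from 253 to 527 CPM, 2.08-fold (2.03 to 2.14), under 2-fold when scaled by total counts, and Pappa2, a protease of IGF-binding proteins, rose from 29.6 to 169 CPM, 5.69-fold (5.33 to 6.07). In the FGF axis 2 of 19 rose and 3 fell. Fgfr1 had 319 and 503 CPM, Fgfrl1, a receptor without a kinase, fell from 140.0 to 65.2 CPM, 2.15-fold (2.04 to 2.27), and Spry1, a feedback inhibitor, rose from 8.7 to 23.2 CPM, 2.67-fold (2.34 to 3.05).

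Genes of glycolysis and the response to low oxygen rose in part. Of 39, 9 rose and none fell, with a median log2 change of 0.48 (0.35 in wildtype, where 4 rose). Egln1 and Egln3, oxygen-sensing prolyl hydroxylases, rose from 76.6 to 250.1 CPM, 3.27-fold (3.13 to 3.41) and from 10.6 to 35.5 CPM, 3.34-fold (2.98 to 3.76). Car9, a carbonic anhydrase induced by hypoxia, rose from 68 to 166 CPM, 2.44-fold (2.33 to 2.56), and Ankrd37, another hypoxia target, rose from 3.33 to 18.9 CPM, 5.67-fold (4.67 to 6.92). In wildtype Egln1 had 136 and 193 CPM. Start regions were found for 36 of the 39 genes, and 25 (69.4%) held the hypoxia response core ACGTG on either strand, against 21.8% of all 27025 promoters, which include those of genes not read here. The same core was in 40.0% of the start regions found for immediate early genes and 32.4% of those for replication genes.

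The 73 genes of oxidative phosphorylation and the 79 cytosolic ribosomal proteins held none that passed the rule in either direction, with medians of -0.18 and -0.02. Ribosomal protein genes share reads with pseudogenes, so their single values are uncertain.

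Most sterol and fatty acid genes changed downward by less than 2-fold, and their median had the opposite sign in wildtype. In Ezh2-deficient cultures the 35 genes of cholesterol and fatty acid synthesis had a median log2 change of -0.41, against -0.01 for all genes. Of the 35, 32 had a change below 0, 3 fell by the 2-fold rule and none rose. Over all genes 5.83% fell and 5.31% rose. In wildtype their median was 0.32, and the change was lower in Ezh2-deficient cultures for all 35 genes, with a median difference of -0.74. The medians were -0.6 and 0.24 under total counts and -0.6 and 0.23 under the authors' RPKM. Both scalings shift all genes of a genotype by nearly the same amount, so they are not separate checks. The difference between genotypes was not tested. The levels differed at day 7 too: the list's levels summed to 11934, 8150.5 and 6037 CPM at days 3, 7 and 14 in Ezh2-deficient cultures, against 9663, 5939 and 7056 in wildtype, so the Ezh2-deficient sum was the higher at days 3 and 7 and the lower at day 14. Hmgcs1 and Idi1 are examples, chosen after their values were seen, that had like levels in both genotypes at day 7, unlike the list's sum. Hmgcs1, an early enzyme of the sterol route, had 299 and 232 CPM in Ezh2-deficient and 289.7 and 434 CPM in wildtype cultures. Idi1, an isomerase further along the route, had 121 and 81.4 CPM against 119.6 and 165 CPM. Acaca, also on the list, differed at day 7 instead, with 269 and 148 CPM in Ezh2-deficient and 156 and 152 CPM in wildtype cultures. Elovl6, an elongase of fatty acids, fell from 118 to 56 CPM, 2.11-fold (1.99 to 2.23), and Thrsp, a lipogenic regulator, fell from 46 to 15.4 CPM, 2.98-fold (2.68 to 3.32).

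Immediate early genes, which respond within minutes to growth factors and stress, rose in part in Ezh2-deficient cultures. Of 25, 8 rose and none fell, with a median log2 change of 0.68, while in wildtype none passed the rule and the median was 0.19. Fos, an AP-1 subunit, rose from 8.65 to 23.3 CPM, 2.69-fold (2.35 to 3.08) and had 11.3 and 11.4 CPM in wildtype. Junb, its partner, rose from 19.95 to 56.3 CPM, 2.82-fold (2.59 to 3.08), Klf4, a zinc finger factor, rose from 78.4 to 231 CPM, 2.94-fold (2.81 to 3.07), and Nr4a1, an orphan nuclear receptor, rose from 12.7 to 37.8 CPM, 2.97-fold (2.67 to 3.31). Egr1 had 55.6 and 109 CPM. With scaling by total counts or with the authors' RPKM, 4 of the 25 passed.

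In other stress pathways the shares that rose or fell are to be read against 5.31% and 5.83% of all genes. Of 30 genes of the endoplasmic reticulum, 1 rose, the osteoblast factor Creb3l1 (73.3 to 405 CPM), and none fell. Among 28 antioxidant genes 3 fell and none rose, with the metallothioneins Mt1 and Mt2 falling 2.09-fold (1.88 to 2.34) and 2.9-fold (2.35 to 3.6) and Nqo1 2.06-fold (1.86 to 2.29). Of 29 amino acid response genes, 2 rose and 2 fell: Vldlr, a lipoprotein receptor, rose from 108 to 416 CPM, 3.85-fold (3.72 to 3.99), and Cth, an enzyme of cysteine synthesis, fell from 21.4 to 10.2 CPM, 2.11-fold (1.84 to 2.42).

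Some interferon-stimulated genes fell. Of 37, 8 fell, with a median log2 change of -0.66 (-0.39 in wildtype, where 2 fell). Ifit1 and Ifit3, antiviral RNA-binding proteins, fell from 79.7 to 32 CPM, 2.49-fold (2.31 to 2.69) and from 45.4 to 18.8 CPM, 2.42-fold (2.19 to 2.67), having been 3.88 and 4.26 CPM at day 3. Of 18 chemokines, 7 fell and 1 rose. Cxcl10 and Cxcl9, which draw T cells, fell from 19.7 to 2.91 CPM, 6.76-fold (5.36 to 8.62) and from 13.5 to 2.15 CPM, 6.3-fold (4.81 to 8.39), and Ccl2, which draws monocytes, fell from 31.7 to 8.19 CPM, 3.87-fold (3.35 to 4.48). Of 25 inflammatory mediators 7 fell and 2 rose. Lcn2, an iron-scavenging acute-phase protein, fell from 19.7 to 1.46 CPM, 13.5-fold (9.82 to 19.1), Chi3l1, a chitinase-like protein, fell from 31.2 to 5.14 CPM, 6.08-fold (5.1 to 7.29), and Saa3, serum amyloid A3, fell from 5.75 to 1.17 CPM, 4.93-fold (3.4 to 7.39). Chi3l1 had 27 and 34.6 CPM and Saa3 2.79 and 3.38 CPM in wildtype. Ptgs2, the inducible cyclooxygenase, rose from 18.2 to 81.6 CPM, 4.48-fold (4.12 to 4.88).

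Markers of macrophages rose in part beside these changes. Of 25 detected, 8 rose and none fell, and their summed level was 193 CPM at day 3, 2169 at day 7 and 4171 at day 14. In wildtype it was 244, 2256 and 3299.8 CPM. Csf1r, the receptor of the macrophage growth factor, had 146 and 260.3 CPM. Emr1, the F4/80 antigen, rose from 90.5 to 187 CPM, 2.06-fold (1.98 to 2.15), under 2-fold when scaled by total counts. Mrc1, the mannose receptor, rose from 58.7 to 172 CPM, 2.93-fold (2.79 to 3.08), and the complement gene C1qa rose from 45.9 to 149 CPM, 3.25-fold (3.08 to 3.44). The macrophage sum moved in the same direction as the summed level of the complement list, 1103 CPM at day 7 and 1643 at day 14. Of 19 complement genes 4 rose and 4 fell, and 3 of those that rose were C1q genes on both lists. The summed levels of the interferon and chemokine lists moved the opposite way. The part of macrophages in any of these was not tested.

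Most fat cell markers fell. Of 18, 11 fell and none rose, with a median log2 change of -1.26 (-0.97 in wildtype, where 8 fell), and their summed level was 447, 1496 and 771 CPM at days 3, 7 and 14. Adipoq, the hormone adiponectin, fell from 41.3 to 8.34 CPM, 4.95-fold (4.31 to 5.71), Fabp4, a fatty acid carrier, fell from 225 to 87 CPM, 2.59-fold (2.47 to 2.71), and Pparg, the factor that drives fat cell formation, fell from 23.2 to 7.72 CPM, 3.01-fold (2.59 to 3.51). The sum moved in the same direction as the sterol and fatty acid list, and its part there was not tested. Of 25 fibroblast markers 8 fell and 3 rose. Cd34 fell 2.7-fold (2.46 to 2.98), Ly6a fell 2.77-fold (2.57 to 2.98) and Dpt, dermatopontin, fell 3.27-fold (2.54 to 4.26), while Tnc, tenascin C, rose from 515 to 1623 CPM, 3.15-fold (3.1 to 3.21).

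Markers of other tissues were read in part. Of 20 skeletal muscle markers 9 had at least 1 CPM, of which 1 rose and 3 fell, and the list summed to 43.8 CPM at day 7 and 24.2 at day 14. Tnni2, a fast-fibre troponin, fell from 20.1 to 9.47 CPM, 2.13-fold (1.85 to 2.45), while Myod1, the myoblast factor, was at 0 in both libraries. Of 15 endothelial markers 7 had at least 1 CPM, 2 rose and 1 fell, and the sums were 25.7 and 24.6 CPM. Erg, a factor that cartilage also makes, had 10.7 and 10.2 CPM, Pecam1 0.509 and 0.182 CPM and Cdh5 0.738 and 0.51 CPM. Of 12 keratinocyte markers 4 had at least 1 CPM, 1 rose and none fell, with sums of 24.5 and 23.9 CPM, and Krt14 was at 0 in both libraries. Of 10 osteoclast markers 1 rose (Atp6v0d2, 7.51 to 17.3 CPM) and 1 fell (Mmp9), and the list summed to 435 and 487 CPM. Acp5, the tartrate-resistant phosphatase of osteoclasts and macrophages, had 12.8 and 14 CPM, and Calcr, the calcitonin receptor, 0.0254 and 0 CPM.

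Outside the lists, the largest rise among characterised genes with at least 5 CPM was that of Gal, the neuropeptide galanin, which had 1 fragment at day 7 and 22.1 CPM at day 14, a ratio of 869-fold (155 to 34369). Lipc, hepatic lipase, rose from 0.204 to 54.7 CPM, 269-fold (136 to 624) from 8 fragments. Ptprz1, a receptor phosphatase, rose from 4.91 to 408 CPM, 83.2-fold (72.1 to 96.4). Spns2, a sphingosine 1-phosphate exporter, rose from 4.4 to 162 CPM, 36.7-fold (31.5 to 43), and Lpar3, a lysophosphatidic acid receptor, rose from 0.433 to 22.8 CPM, 52.6-fold (32.6 to 90.9). Among falls, Acox2, a peroxisomal oxidase, went from 13.4 to 0.838 CPM, 16-fold (10.6 to 25.5), and Itm2a, a membrane protein of early cartilage on the X chromosome, fell from 2662 to 962 CPM, 2.77-fold (2.73 to 2.81).

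Against wildtype, most changes kept their sign and many were larger. The wildtype libraries are not shared with the Ezh2-deficient comparison. Of the 719 genes that rose in Ezh2-deficient cultures, 342 (47.6%) also rose in wildtype, 376 were not past the rule and 1 fell. These 342 were 68.8% of those that rose in wildtype. The 376 had a median wildtype log2 change of 0.65, and 693 of the 719 had a wildtype change above 0. Of the 790 that fell, 286 (36.2%) also fell in wildtype, which was 66.5% of the wildtype falls. The other 504 were not past the rule there and had a median wildtype log2 change of -0.59. A wildtype change below 0 was seen for 745 of the 790. Over all genes with at least 1 CPM, 3.68% rose and 3.18% fell in wildtype. Over all 13292 genes with at least 1 CPM in both comparisons, with none selected by its change, 60.3% had the larger absolute log2 change in Ezh2-deficient cultures, and the SD of the log2 changes was 0.71 against 0.6 in wildtype. These differences between single libraries were not tested.

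**Figure D5:**
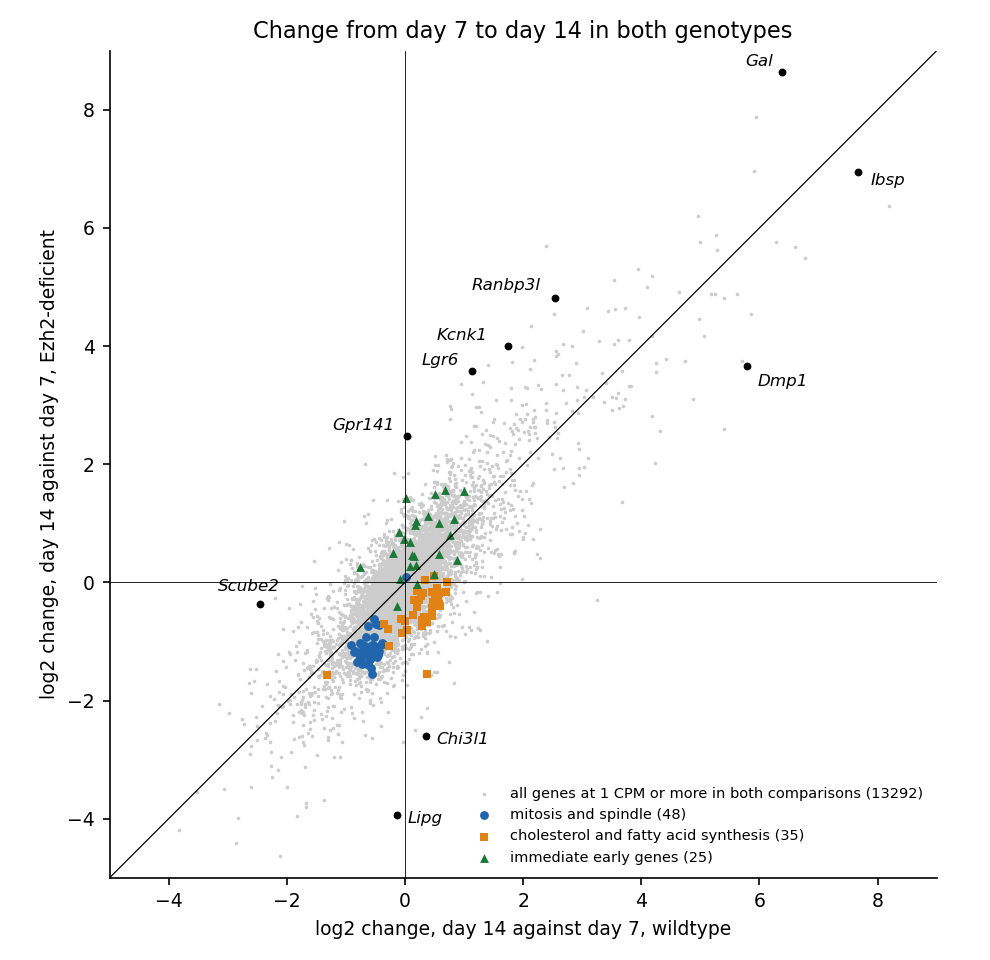
Log2 change from day 7 to day 14 in wildtype (x axis) and Ezh2-deficient cultures (y axis) for 13292 genes with at least 1 CPM in both comparisons, with mitosis, sterol and fatty acid, and immediate early genes coloured. All 35 sterol and fatty acid genes and 47 of 48 mitosis genes lie below the line of equal change.

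The genes whose changes stood farthest apart between the genotypes were of several kinds. Ephx4, an epoxide hydrolase-like protein, had 22.4 CPM at day 3 and rose from 0.636 to 24.2 CPM, 38-fold (25.5 to 59.2), whereas in wildtype it had 16.1 CPM at day 3 and 0.91 and 0.721 CPM at the later days, a difference of 5.51 on the log2 scale. Gpr141, an orphan receptor, rose from 4.17 to 23.5 CPM, 5.62-fold (4.73 to 6.71) and had 2.82 and 2.88 CPM in wildtype. The channel genes Kcnk1 and Scn1a rose 16.1-fold (14.1 to 18.5) and 20.6-fold (16.1 to 26.9), and 3.34-fold and 4.44-fold in wildtype. In the other direction, Lipg, endothelial lipase, fell from 9.92 to 0.619 CPM, 16-fold (9.88 to 27.8) and had 5.29 and 4.82 CPM in wildtype, and Col6a5, a type VI collagen chain, fell from 6.29 to 0.983 CPM, 6.39-fold (4.29 to 9.9) against 3.47 and 2.35 CPM. Dmp1 rose in both, 12.8-fold in Ezh2-deficient and 55.9-fold in wildtype cultures, where it went from 2.73 to 153 CPM.

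Genes that changed were spread over the genome. On chromosomes other than X and Y the share of genes with at least 1 CPM that rose ran from 4.14% to 6.97%, and the share that fell from 3.36% to 7.68%. On the X chromosome 11 of 462 rose (2.38%) and 37 fell (8.01%). Xist, the RNA of the inactive X, had 678 and 512 CPM at days 7 and 14 and 4 Y-linked genes summed to 131.5 and 170.5 CPM, so RNA of both kinds was present in both libraries. The wildtype libraries held 1133 and 1221 CPM of Xist and 62.63 and 60.57 CPM of the Y-linked genes. The part of the mix of sexes in the X counts was not tested. Median coding length was 3065 bases for genes that rose, 2973 for those that fell and 2914 for all with at least 1 CPM.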

How the data were processed

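RNA was sequenced from 6 libraries, 1 for each of 2 genotypes at days 3, 7 and 14. The deposited table held whole-number read counts per gene, not normalized, and RPKM values that the authors computed from counts, coding length and a library total, per the file headers and the values. CASAVA 1.9, TopHat, HTSeq and the build mm10 are named in the submitters' processing notes, without role or order. The sources used here do not state strandedness. All 6 libraries held only even counts, so a fragment was taken as 2 counts.

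CPM used TMM factors from edgeR 4.0.16 (R 4.3.3), 1.092 for day 7 and 0.958 for day 14. Ratio intervals were exact (Clopper-Pearson) 95% intervals on fragments (scipy 1.17.1, Python 3.11.15), checked on simulated data. They cover counting error only: without molecular identifiers, reads can repeat a molecule. Columns were assigned by the libraries' titles. Of 1518 entries in 56 gene lists, 1511 matched a symbol. Named were Ezh2, the 15 largest rises and falls, the 8 largest gains and losses in CPM, up to 6 members a list by size, all with at least 5 CPM, a fixed set of cartilage and bone genes, and the genes differing most from wildtype. The members and lists were chosen with earlier results of these data known. A few genes the rule names are not reported here. Start regions came from RefSeq (GRCm38.p6). Alternatives covered scaling, minimum level, fold, prior count, shared symbols and the counting unit.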

Additional observations from a re-analysis of the deposited data

Results flagged for a closer look

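Ccr2, the receptor that brings monocytes to tissue, passed the 2-fold rule in opposite directions in the 2 genotypes. It rose from 0.992 to 2.08 CPM, 2.09-fold (1.37 to 3.23), in Ezh2-deficient cultures, and fell from 2.5 to 1.21 CPM, 2.06-fold, in wildtype cultures. The log2 change was 2.07 higher in Ezh2-deficient cultures, and the difference was not tested. All 4 values lay under 5 CPM, and the rise no longer passed when libraries were scaled by total counts.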

How the results depend on the processing

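The counts of genes that rose and fell were recomputed under 13 alternatives. With RLE factors 729 rose and 790 fell, with upper-quartile factors 713 and 798, and with TMM over the 2 compared libraries 748 and 785. With the authors' RPKM 430 rose and 867 fell in Ezh2-deficient cultures, 33.2% of calls being higher. That setting also changed the minimum level, to 1 RPKM in place of 1 CPM. At least 1.5-fold gave 1425 that rose and 1586 that fell, and 1054 and 1049 in wildtype. At least 4-fold gave 217 and 135, and 150 and 67 in wildtype. A minimum of 5 CPM gave 519 that fell, and 325 that rose and 234 that fell in wildtype. Total counts and RPKM shift every gene downward, and under both the median log2 change became negative for phosphate and mineralisation (-0.09), metalloproteinases and TIMPs (-0.11), Polycomb repressive complex 2 (-0.13), Polycomb repressive complex 1 (-0.14), CDK inhibitors (-0.01), the Atf4 response (-0.11), lysosome (-0.12), osteoclast (-0.05), endothelial (-0.13) and keratinocyte (-0.1) lists. Of 326 genes named by the rule, none of the 216 that passed changed direction under another scaling. This could not have come out otherwise: passing takes a 2-fold change, and the scalings shifted the median log2 change by only -0.19 to 0.01. Thbs4, Dlx5, Emr1, Ccr2, Hoxb3, Smpd3, Hey1, Igf1, Klf2, Zfp36, Nupr1 and P4ha1, among others, no longer passed with total counts or with RPKM, while Slc20a2, Timp3, Col4a2, Cdkn2c, Igfbp3 and others were then lower. Kcnf1, Col6a5, Gpr98 and Rtl1 failed under RPKM alone, where they missed the minimum level. Their log2 changes there were still past 2-fold, at 3.19, -2.82, -2.68 and -1.44. The absolute log2 change was the larger in Ezh2-deficient cultures for 66.5% of 13292 genes with total counts. No library could be left out, since each side held 1. No paired analysis was possible because each group held a single library and the result comes from no test. Depth limits genes near 3 fragments: intervals such as that of 869-fold (155 to 34369) for Gal span over an order of magnitude.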

Other observations

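A few lists outside the account above also held members that passed the 2-fold rule. Their counts are to be read against the 5.31% of all genes that rose and the 5.83% that fell. Of 19 ADAMTS proteases, which cut proteoglycans and procollagens, 5 rose and 2 fell in Ezh2-deficient cultures. Adamts18 rose from 2.26 to 30.3 CPM, 13.4-fold (10.7 to 16.8), Adamts17 rose from 3.46 to 22.8 CPM, 6.59-fold (5.46 to 7.99) and Adamts12 rose from 37.3 to 87.7 CPM, 2.35-fold (2.2 to 2.51), while Adamtsl4, an ADAMTS-like protein without protease activity, fell from 47.4 to 21.8 CPM, 2.18-fold (1.98 to 2.39). Of 14 Notch genes 2 rose and 2 fell. Hey1, a target, rose from 6.18 to 13.7 CPM, 2.22-fold (1.88 to 2.62), under 2-fold when scaled by total counts, and Dlk1 fell 11.4-fold. Of 37 lysosome and autophagy genes 1 rose, Wipi1 (48.2 to 114 CPM), and none fell.

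Of 16 matched markers of neural and glial cells, 7 had at least 1 CPM, of which 1 rose and 3 fell. Their median log2 change was -0.04 (-0.45 in wildtype, where 1 rose and 2 fell). Ngfr, the p75 receptor, fell from 12.6 to 2.08 CPM, 6.07-fold (4.61 to 8.13). S100b, which cartilage also makes, fell from 122 to 31.4 CPM, 3.88-fold (3.61 to 4.18). Tubb3, a neuronal tubulin, rose from 1.35 to 8.09 CPM, 5.99-fold (4.43 to 8.25). Among osteochondral progenitor and joint markers 1 of 18 rose and 5 fell, with Osr1 and Osr2, odd-skipped factors of the joint, falling 2.07-fold (1.76 to 2.44) and 2.87-fold (2.19 to 3.8).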
